A study of Homo sapiens with 6 samples.

Results

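The 10 deadenylase genes described here are CNOT1, CNOT2, CNOT3, CNOT4, CNOT6, CNOT6L, CNOT7, CNOT8, PARN and PAN2. They encode enzymes that shorten the poly(A) tails of mRNAs, subunits of the complexes that hold those enzymes or, for CNOT4, a ubiquitin ligase. They were taken by name from the 20176 protein-coding genes of the annotation, 13475 of which had any bin in the deposited lists. All 10 had listed bins. The data came from RIP-seq, in which RNA bound by a protein is pulled down with an antibody and sequenced beside the RNA of the lysate (input). The antibody was against CUGBP1, the older name of the RNA-binding protein CELF1. SK-Mel-103 and UACC-62 are human melanoma cell lines, here with no genetic change or drug named in the labels and grown in the same medium with fetal bovine serum. SK-Mel-103 had 1 IP and 1 input library, and UACC-62 had 2 of each, numbered 1 and 3. Wherever values are given as 3 in a row they run from the SK-Mel-103 sample through the first UACC-62 replicate to the one numbered 3. The members took up 911 of 816781, 842 of 780750 and 1048 of 862731 listed bins in this order.

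In the cell, most cytoplasmic deadenylation is carried out by the CCR4-NOT complex, in which CNOT1 is the scaffold. It carries an exonuclease of the CCR4 type (CNOT6 or CNOT6L) and one of the CAF1 type (CNOT7 or CNOT8), while CNOT2 and CNOT3 form a module at the end of the scaffold and CNOT4 is a RING-type ubiquitin ligase. PAN2, with its partner PAN3, trims long tails, and PARN is a separate poly(A)-specific ribonuclease. CELF1 binds GU-rich elements (GREs) in 3′UTRs and is known as a factor that recruits deadenylases to such mRNAs. The question put to the lists was which of the deadenylase mRNAs were themselves carried in the CELF1 IP.

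The lists gave 20-bp bins that had passed a peak caller run on each IP with its input as covariate, and held 10958459 to 14436573 IP reads and 8453517 to 10161917 input reads per sample. Bins below the caller's threshold were not listed, so all levels rest on listed bins. Ratios were higher in thinly covered genes. Among genes with 10 to 50 reads, the median log2 IP over input was 0.76, 0.51 and 1.04, against -0.51, -0.90 and -0.64 among genes with 1000 to 5000 reads. As a check of the cell type, 6 of 7 melanocyte lineage markers had input reads in each UACC-62 sample and 3 of 7 in SK-Mel-103, where TYR, DCT and S100B were at 0. PMEL had no listed bin in any sample. The summed input of these markers was 900, 15728 and 11980 reads. Markers of keratinocytes, fibroblasts and endothelium were at 0 in all 3 samples, and those of leukocytes totalled 0 to 3 reads. PECAM1 was not among the annotated genes used.

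Log2 IP over input of a gene was the log2 of the ratio of its share of all listed IP reads to its share of all listed input reads, with 1 read added to each. The members spread from -1.77 (CNOT1) to 3.30 (CNOT6). CNOT6 stood highest in every sample, and CNOT6L and PARN followed. CNOT4, on few reads, lay 0.25 to 0.84 above the input, and CNOT3 and PAN2 lay near it. CNOT2, CNOT8, CNOT7 and CNOT1 lay below the input. Of the 8 members with at least 50 IP and input reads together in every sample (all but CNOT3 and PAN2), CNOT6 and CNOT6L lay more than 2-fold above the input in all 3 samples, a call met by 8.92% of all 7672 genes with such coverage. CNOT1 and CNOT7 lay more than 2-fold below it in all 3, a call met by 17.1% of those genes. PARN passed the upper limit in SK-Mel-103 alone, CNOT8 passed the lower one in both UACC-62 replicates, and CNOT2 missed it by a single value of -0.99. The median over all 10 members was -0.24, -0.05 and 0.21, and over the 8 covered members alone 0.02, -0.11 and -0.37. Over all covered genes it was -0.26, -0.70 and -0.48. Relative to those all-gene medians, no member lay more than 2-fold below in all 3 samples, and CNOT6, CNOT6L and PARN lay more than 2-fold above. The share of all genes that met these centred limits was not taken, so the counts have no background beside them. As SK-Mel-103 had 1 sample and UACC-62 had 2, no test between samples was made, and an exact two-sided permutation over 3 IP and input pairs could not give a p below 0.25.

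**Figure D1:**
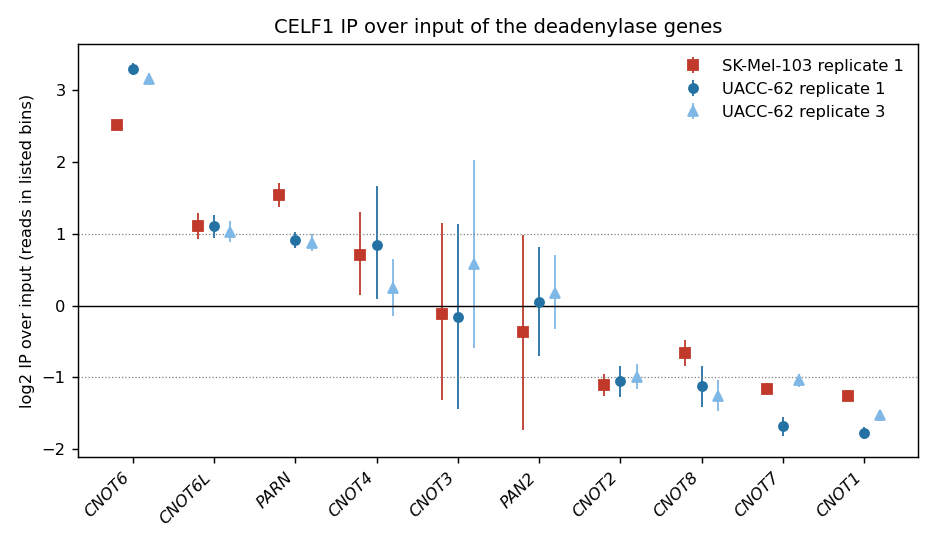
Log2 IP over input (vertical axis, reads in listed bins) of the 10 members with squares for SK-Mel-103, circles for UACC-62 replicate 1 and triangles for replicate 3, ordered by the UACC-62 mean. Bars are 95% Wilson intervals of the read counts, which cover counting error only, and dotted lines mark 2-fold. CNOT6 lies between 2.51 and 3.30, and the bars of CNOT3 and PAN2 cross 0 in every sample.

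CNOT6, a CCR4-type catalytic subunit (ENSG00000113300, chr5:179921379-180005358 in GRCh37, plus strand), was the most strongly represented member. It had 13237, 13634 and 17811 IP reads against 1787, 1240 and 1225 input reads. The log2 ratio was 2.51, 3.30 and 3.16, with a UACC-62 mean of 3.23 ± 0.10 (SD, n = 2). This placed the mean of its 3 samples at the 99.4th percentile of the covered genes. CNOT6 alone gave 65.4%, 70.0% and 66.7% of the members' IP reads, but 17.0%, 12.0% and 12.6% of their input reads. Scaled to the totals of the lists, IP exceeded input in 245 of its 254 listed bins in SK-Mel-103 and in all but 1 of its 254 and 267 bins in the UACC-62 replicates, so the excess ran along the mRNA and was not limited to a few bins.

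CNOT6 also held most of the peaks. A common peak was a bin with more than 30 IP reads, the study's limit, at the same position and strand in all 3 lists. Of the 10 members 2 had one, CNOT6 and PARN, and 13.1% of all genes with a listed exonic bin had at least 1. CNOT6 had 112 common peaks, all in the 3′UTR but for 9 in the coding region. Of the 274 CNOT6 bins in any list, 241 were in all 3 (88.0%), beside 29.4% of the bins of all protein-coding genes. That all-gene share was not matched for coverage, and CNOT7 (44.9%) and CNOT1 (42.3%), both below input, exceeded it too. The pair of common peaks with the most IP reads in their lowest sample, both in the 3′UTR, are printed to show what the strongest CNOT6 bins read like. They held no capitals because no GRE letters fell in them.

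CNOT6 peak 1: guuuuagauauuuuccgugu
CNOT6 peak 2: agaugaaaaccagcuuuaac

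The first, at chr5:180003741-180003760, had 263, 318 and 427 IP reads, against 28, 23 and 19 input reads. The second, at chr5:180002661-180002680, had 257, 290 and 315 IP reads against 10, 7 and 11 input reads. Cut in 3 equal stretches of its 4149 nt, the 3′UTR had log2 IP over input of 2.53, 3.24 and 2.96 in the first stretch, 3.30, 4.09 and 3.82 in the middle and 2.43, 2.95 and 3.33 in the last. The middle stretch was highest in every sample and held 51.4%, 55.4% and 51.2% of the 3′UTR's IP reads, while the last held 12.7%, 7.96% and 8.80%. Input reads fell along it too, from 566, 425 and 474 in the first stretch to 214, 112 and 80 in the last.

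**Figure D2:**
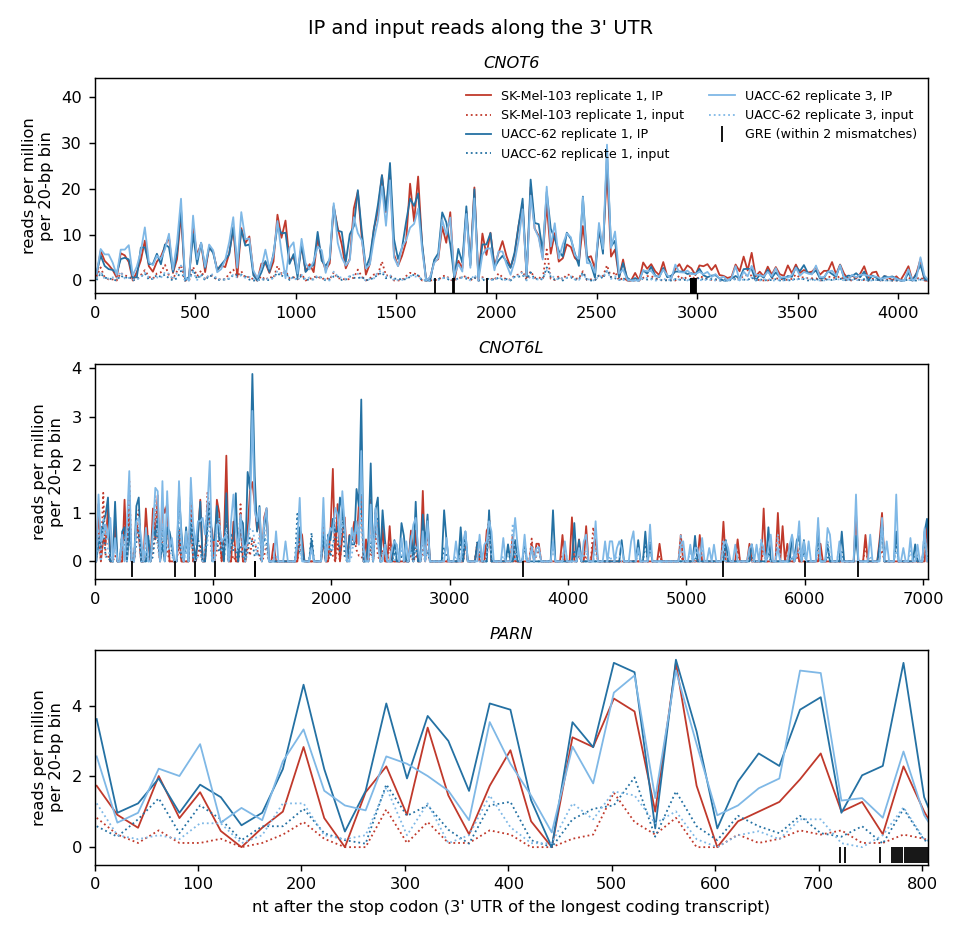
IP (solid) and input (dotted) reads in each 20-bp bin in RPM, scaled to the listed total (vertical axis), against the distance in nt from the stop codon of the longest coding transcript (horizontal axis), for CNOT6, CNOT6L and PARN, with bins that were not listed drawn at 0. Ticks under the traces are GREs. The 3 IP traces of CNOT6 share most of their peaks and drop in the last of 3 equal stretches. The CNOT6L reads thin out towards the end. The PARN IP lies above input in most bins of the 806 nt drawn, which leave out 3′UTR annotated beyond them.

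CNOT6L, the paralogue of CNOT6 (chr4:78634541-78740769, minus strand), was above input at a far lower level. It had 931, 1094 and 1696 IP reads against 333, 456 and 511 input reads. Its log2 ratio was 1.11, 1.10 and 1.03 (UACC-62 mean 1.07 ± 0.05, SD, n = 2), and the 3 samples were closer together than for any other of the 8 covered members. It was below CNOT6 by 1.41, 2.20 and 2.13 log2 units. Counting only bins with input reads took CNOT6L below the 2-fold limit, at 0.99 for SK-Mel-103 and at 0.91 for the UACC-62 mean. No CNOT6L bin passed 30 IP reads in SK-Mel-103, and 2 did in each UACC-62 sample. Of its 226 bins, 59 were in all 3 lists (26.1%). IP exceeded input in 84.7%, 87.2% and 89.6% of its listed bins.

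PARN (chr16:14529557-14726585, minus strand) was the only other member with common peaks. It had 1316, 1991 and 2290 IP reads against 348, 947 and 770 input reads. The IP was above input by 1.54, 0.91 and 0.87 log2 units (UACC-62 mean 0.89 ± 0.03, SD, n = 2). SK-Mel-103 was the highest, and there PARN stood above CNOT6L, whereas in UACC-62 it stood below. All 7 common peaks of PARN lay in its 3′UTR, and 76 of its 117 bins (65.0%) were in all 3 lists. The pair with the most IP reads in their lowest sample are printed to show its leading common peaks. A single 5′UTR bin of PARN had 60 IP reads in SK-Mel-103 but 5 and 12 in UACC-62, so it was no common peak.

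PARN peak 1: acucaugcccacccaugaga
PARN peak 2: caccauagcugccugaaaac

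The first, at chr16:14530001-14530020, had 57, 60 and 72 IP reads against 7, 16 and 9 input reads, and the second, at chr16:14530061-14530080, had 46, 59 and 63 against 13, 12 and 14. The PARN 3′UTR of the longest coding transcript, of 806 nt, was above input in each of 3 equal stretches. Its log2 IP over input was 1.97, 1.51 and 1.62 in the first, 2.22, 1.72 and 1.48 in the middle and 2.38, 2.16 and 2.32 in the last. Unlike in CNOT6, the last of these stretches was the highest in every sample. The common peaks at chr16:14529641-14529660 and chr16:14529661-14529680 lay beyond the 806 nt, in 3′UTR annotated for other transcripts, and are not in these stretches.

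CNOT4, CNOT3 and PAN2 were measured on few reads. CNOT4, the ubiquitin ligase (chr7:135046547-135194893, minus strand), had 75, 39 and 149 IP reads against 35, 19 and 77 input reads, with log2 IP over input of 0.70, 0.84 and 0.25 (UACC-62 mean 0.54 ± 0.42, SD, n = 2). CNOT3, of the NOT module (chr19:54641465-54659419, plus strand), had 11, 9 and 16 IP reads against 9, 9 and 6, with -0.11, -0.16 and 0.58. PAN2, the catalytic subunit of PAN2-PAN3 (chr12:56710007-56727837, minus strand), had 8, 29 and 85 IP reads against 8, 25 and 46, with -0.37, 0.05 and 0.17. These 3 genes had no bin in all 3 lists and none over 30 IP reads. All-gene medians of genes with 50 to 250 reads, the range of CNOT4, were 0.22, -0.24 and 0.08.

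The CAF1-type catalytic subunits lay below input. CNOT8 (chr5:154237113-154256352, plus strand) had 438, 147 and 291 IP reads against 535, 288 and 429 input reads. This gave a log2 ratio of -0.66, -1.12 and -1.26 (UACC-62 mean -1.19 ± 0.09, SD, n = 2). CNOT7 (chr8:17082475-17104387, minus strand) had more reads, 1773, 675 and 1760 in the IP against 3060, 1946 and 2228 in the input. Its log2 IP over input was -1.16, -1.68 and -1.04 (UACC-62 mean -1.36 ± 0.46, SD, n = 2), so the UACC-62 replicates lay on either side of SK-Mel-103. CNOT7 had 13, 0 and 14 bins over 30 IP reads. It thus had no common peak, but gained one when UACC-62 replicate 1 was left out, which took the members with a common peak from 2 to 3. The values of CNOT7 and CNOT8 overlapped, and CNOT8 was above CNOT7 in 2 of 3 samples.

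The CCR4-type subunits were therefore on the other side of the input from the CAF1-type ones in every sample. The lower of the former, CNOT6L, was above CNOT8 by 1.77, 2.23 and 2.29 log2 units, more than the largest spread between the 2 UACC-62 replicates of these genes. The all-gene medians lay below input too, and relative to them CNOT8 was at -0.40, -0.42 and -0.77 and CNOT7 at -0.90, -0.98 and -0.56. By the mean of the 3 samples, the percentiles among covered genes were 88.4 for CNOT6L, 28.9 for CNOT8, 27.9 for CNOT2, 20.1 for CNOT7 and 13.1 for CNOT1. CNOT1, the scaffold (chr16:58553855-58663789, minus strand), was the lowest member in the UACC-62 mean. It had 1905, 1606 and 2140 IP reads against 3505, 4918 and 3815 input reads, with log2 IP over input of -1.25, -1.77 and -1.53 (UACC-62 mean -1.65 ± 0.17, SD, n = 2). CNOT2, of the NOT module (chr12:70636782-70748773, plus strand), had 551, 261 and 484 IP reads against 915, 488 and 593, with -1.11, -1.06 and -0.99 (UACC-62 mean -1.02 ± 0.05, SD, n = 2). CNOT2 joined the members more than 2-fold below input when UACC-62 replicate 3 was left out. In the order of UACC-62 means, the replicate ranges overlapped between the neighbours CNOT4 and CNOT3, CNOT3 and PAN2, CNOT8 and CNOT7, and CNOT7 and CNOT1.

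The order of the members in the IP was not their order in the input. Levels were compared per length, as RPKM, the reads per kb of the longest coding transcript scaled to the listed total. In the input, CNOT1 had 49.1, 57.5 and 50.9, CNOT7 had 49.1, 27.0 and 34.4, and CNOT6 had 33.8, 19.5 and 22.0. In the IP on the same scale, CNOT6 had 193, 192 and 197, PARN had 34.6, 51.0 and 48.4, and CNOT1 had 20.3, 16.7 and 17.5. CNOT6 thus led the IP while CNOT1 stood above it in every input. CNOT6L had 4.49, 5.12 and 6.55 in the input, less than CNOT6 in each sample. CNOT3 and PAN2 had at most 0.975 in the input of any sample, and CNOT4 at most 2.29.

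**Figure D3:**
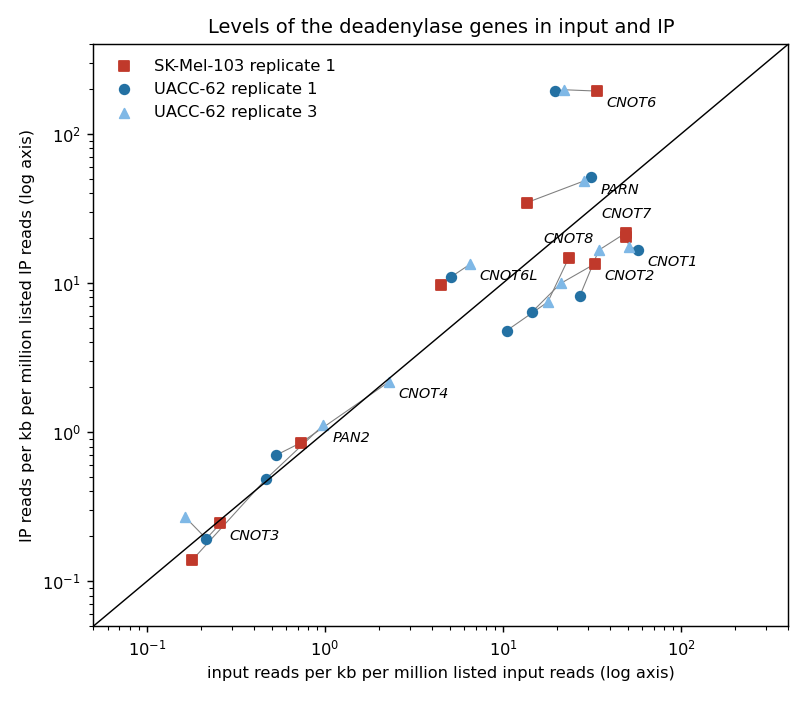
IP against input levels of the 10 members, each in RPKM over the longest coding transcript (both axes are log axes). Each symbol is a sample, grey lines join the samples of a gene and the black line marks equal levels. CNOT6, with 192 to 197 in the IP, stands farthest above the line.

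No member lay more than 1 log2 unit outside both UACC-62 replicates in SK-Mel-103. Of all covered genes, 4.18% lay that far above and 0.925% that far below. The widest gaps were those of CNOT6, which was 0.72 lower in SK-Mel-103 than the UACC-62 mean, and PARN, which was 0.65 higher. For CNOT6 the IP level was nearly the same in the 3 samples, 193 for SK-Mel-103 against 195 ± 3.44 for UACC-62 (SD, n = 2), and the input level was 33.8 against 20.8 ± 1.77. For PARN both were lower in SK-Mel-103, the IP at 34.6 against 49.7 ± 1.84 and the input at 13.6 against 29.9 ± 1.88. Input levels in SK-Mel-103 were above both UACC-62 replicates for CNOT2 (32.9 against 14.5 and 21.0), CNOT7 and CNOT8 (23.4 against 10.5 and 17.8). Input reads were counted only in bins listed for the IP of the same sample. CNOT2 had 72, 40 and 61 such bins, CNOT7 had 111, 77 and 121 and CNOT8 had 55, 25 and 40. All these levels can thus depend on how many bins were listed, and whether mRNA levels differed was not tested. With 1 SK-Mel-103 sample the spread within that line is unknown.

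Most IP reads of the members lay in 3′UTRs. The 3′UTR share was 78.5% (95% Wilson interval 77.9 to 79.0), 80.7% (80.2 to 81.3) and 75.8% (75.3 to 76.4), with intervals that cover counting error only. The same share of the members' input was 47.3%, 37.6% and 41.9%. Without CNOT6 the IP share was 57.8%, 60.0% and 59.0% and the input share 42.6%, 32.9% and 37.5%. Over all protein-coding genes the IP share was 71.9%, 77.7% and 76.0%, so the high share of the 10 members rested on CNOT6.

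Within an mRNA, the 3′UTR had higher log2 IP over input than the coding region in all 3 samples in 6 of the 7 members with 50 reads in both regions, the exception being CNOT8. Of 4542 genes with such coverage, 56.8% met this. PARN had the widest gap of the 7, at 2.20, 2.43 and 2.03 log2 units, the 98.7th percentile of those genes. Its 3′UTR was at 2.45, 2.02 and 1.89 and its coding region at 0.25, -0.41 and -0.14, so the PARN signal came from the 3′UTR while the coding region lay near the input. The CNOT6 gap was 1.84, 1.74 and 1.03, and its coding region was itself above input, at 1.02, 1.87 and 2.35. CNOT6L had almost none, at 0.09, 0.06 and 0.27, which is below the all-gene medians of 0.41, 0.39 and 0.33. CNOT7, at 0.65, 0.63 and 0.76, CNOT1, at 0.65, 0.38 and 0.30, and CNOT2, at 0.48, 0.54 and 0.40, had gaps of a common size. In CNOT8 the 3′UTR was below the coding region by -0.49, -0.67 and -0.10.

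**Figure D4:**
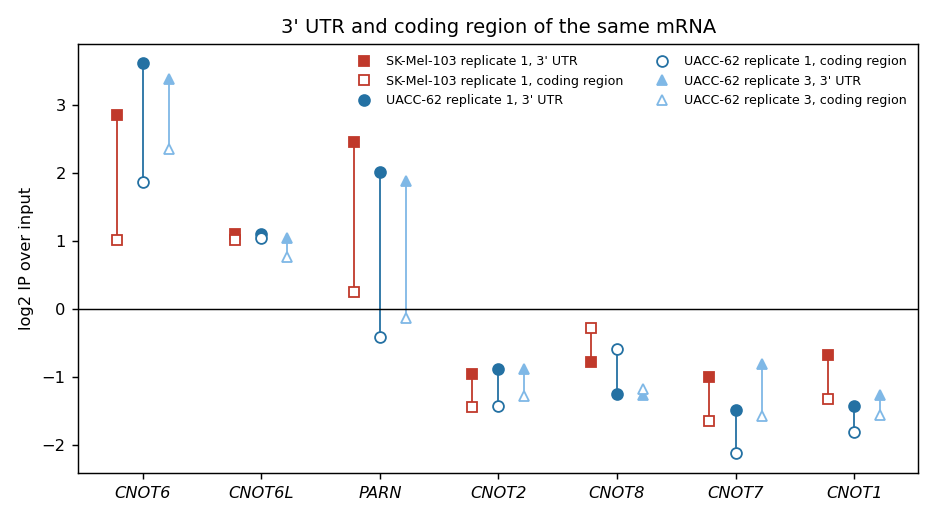
Log2 IP over input (vertical axis) of the 3′UTR (filled symbols) and the coding region (open symbols) of the 7 members with 50 reads in both, joined by a line in each sample, in the order of the UACC-62 mean. The PARN lines are the longest, from -0.41 to 0.25 in the coding region up to 1.89 to 2.45 in the 3′UTR, and CNOT8 is the only gene with the open symbols on top in all 3 samples.

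The GREs searched for were stretches of 11 letters within 2 mismatches of the repeated unit UGUU or of the repeated unit UG, on the transcript strand only, with overlapping matches of either kind joined into 1 element. The members' annotated 3′UTRs, all transcripts together, ran from 1065 to 7250 nt, beside an all-gene median of 1346 nt. Of the 10 members 8 had a GRE in an annotated 3′UTR, or 6 with 1 transcript per gene. Of 19307 genes with a 3′UTR, 56.4% had one over all transcripts, with no account taken of 3′UTR length. CNOT6L had 9, CNOT7 had 7, CNOT6 and PARN had 4 each, CNOT2 had 3, CNOT1, CNOT3 and CNOT4 had 2 each, and none was found in CNOT8 or PAN2. Per kb of 3′UTR this was 0.962 in CNOT6, 1.24 in CNOT6L, 0.968 in PARN, 0.448 in CNOT4 and 1.04 in CNOT3. It was 0.677 in CNOT2, 1.05 in CNOT7 and 1.88 in CNOT1, beside an all-gene median of 0.424. CNOT1, last in log2 IP over input by the UACC-62 mean, had a higher density than CNOT6, which was first. Whether density followed that order over the 10 members was not tested. The high density of CNOT1 rested on all transcripts together. On the longest coding transcript CNOT1 had 1 GRE in 1007 nt, CNOT6 had 4 in 4149 nt and PARN had 3 in 806 nt. CNOT2 and CNOT3 had none there. A GRE with no mismatch was found in CNOT6 and PARN, beside 7.81% of all genes. Both were runs of alternating U and G, of 33 nt in CNOT6 and 48 nt in PARN. These 2 are printed with the best matched GREs of CNOT6L (1 mismatch) and CNOT1 (2 mismatches), as examples from members above and below input. Each has 9 nt on each side and the matched letters in capitals.

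CNOT6: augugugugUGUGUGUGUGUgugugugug
PARN: gugugugugUGUGUGUGUGUgugugugug
CNOT6L: ggaaaagguUGUGUCUGUGUuuuuaaguu
CNOT1: ccuacuucuUGUAUGUGUAUgcauacugu

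They lie at chr5:180004163-180004191 on the plus strand, and at chr16:14529762-14529790, chr4:78640216-78640244 and chr16:58553882-58553910 on the minus strand. In bins within 50 nt of the CNOT6 element, IP reads were 169, 113 and 143 against 33, 13 and 9 input reads. Near the PARN element they were 117, 195 and 142 against 13, 29 and 25, and near the CNOT6L element 63, 101 and 101 against 11, 13 and 22. The CNOT1 element had 12, 10 and 23 IP reads against 34, 41 and 35, fewer than its input in every sample. Other members were not all alike on each side of the input. A GRE of CNOT2 with 2 mismatches, in a member below input, had 9, 5 and 0 IP reads against 3, 1 and 0. CNOT4, above input, had no listed bin within 50 nt of its GRE with 1 mismatch. CNOT7, below input, also had a GRE with 1 mismatch, which is not printed. Reads of 40 nt from a run of alternating U and G may map to several places in the genome, and how much this touched the 2 perfect elements was not tested. In the CNOT6 run itself, 2 listed bins held 42, 33 and 40 IP reads, well below the 263 to 427 of its first printed peak.

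Reads near GREs and away from them could be compared in 5 members in all 3 samples. In CNOT6, bins within 50 nt of a GRE were above its other 3′UTR bins by 0.60, 0.71 and 0.84 log2 units. It was the only one of the 5 with near bins higher in all 3 samples, and 41.9% of 2227 genes met this. The differences were -0.04, 0.39 and 0.05 in CNOT6L, -0.04, 0.67 and 0.32 in PARN, 0.42, -0.48 and 0.07 in CNOT7 and -0.81, -0.03 and -0.02 in CNOT1, beside all-gene medians of 0.18, 0.20 and 0.10. Of the common peaks in the CNOT6 3′UTR, 10 lay within 50 nt of a GRE, and 10.9% of its 3′UTR positions lay that near. Its other 3′UTR bins, at 2.82, 3.56 and 3.33, were far above input as well. None of the 7 PARN peaks lay within 50 nt of a GRE.

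Of 52 other genes of mRNA decay, 44 had 50 reads in every sample. All 52 had a listed bin, and 11 of the 52 had a common peak. Of the 44, 1 lay more than 2-fold above input in all 3 samples and 11 more than 2-fold below. Over all genes, 13.1% of those with a listed exonic bin had a common peak, and 8.92% and 17.1% of those covered met the other calls. Whether the counts of these small lists depart from such shares was not tested. The median of the 44 was -0.65, -0.96 and -0.50, below the all-gene medians of -0.26, -0.70 and -0.48. Among 14 partners of the deadenylases and other poly(A) nucleases, 4 had common peaks, and none of the 10 with 50 reads in every sample passed 2-fold in either direction in all 3. PDE12, a mitochondrial poly(A) nuclease, had 9 common peaks and log2 IP over input of 0.80, 0.81 and 0.52, CNOT9, a further CCR4-NOT subunit, had 3 and -0.29, -0.83 and -0.05, and the antiproliferative BTG1 and BTG3, of a family that binds CAF1-type deadenylases, had 1 each and values from -1.70 to -0.77.

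Of 6 genes of poly(A)-binding proteins and their partners, PABPN1, which binds nuclear poly(A), had 29 common peaks and 0.98, 1.38 and 2.24, while 2 of the 5 genes with 50 reads in every sample lay more than 2-fold below input. PABPC1, the main cytoplasmic poly(A)-binding protein, had 26 common peaks at -1.59, -1.73 and -1.27, so a common peak also arose in an mRNA below its input. It was named after its values were seen. Of 17 genes of decapping and decay from the 5′ end, LSM14A, a P-body protein, had 33 common peaks and was more than 2-fold above input at 1.24, 1.65 and 1.03, and 5 of the 16 covered genes were more than 2-fold below. DCP2, the decapping enzyme, had 2 common peaks and 0.60, 0.23 and 0.89, and LSM14B also had 2 and 0.80, 0.46 and 1.14. LSM4 and LSM5, of the ring that binds deadenylated 3′ ends, had 3 and 2, with 5 of their 6 values below 0. LSM3, at -1.65, -3.10 and -2.75, and LSM1, at -1.38, -2.27 and -1.96, were the lowest of the 44. None of 15 genes of the exosome and decay from the 3′ end had a common peak, and 4 of the 13 covered lay more than 2-fold below input. Beside the counts of these lists, 13.1% of all genes with a listed exonic bin had a common peak and 17.1% of covered genes lay that far below.

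**Figure D5:**
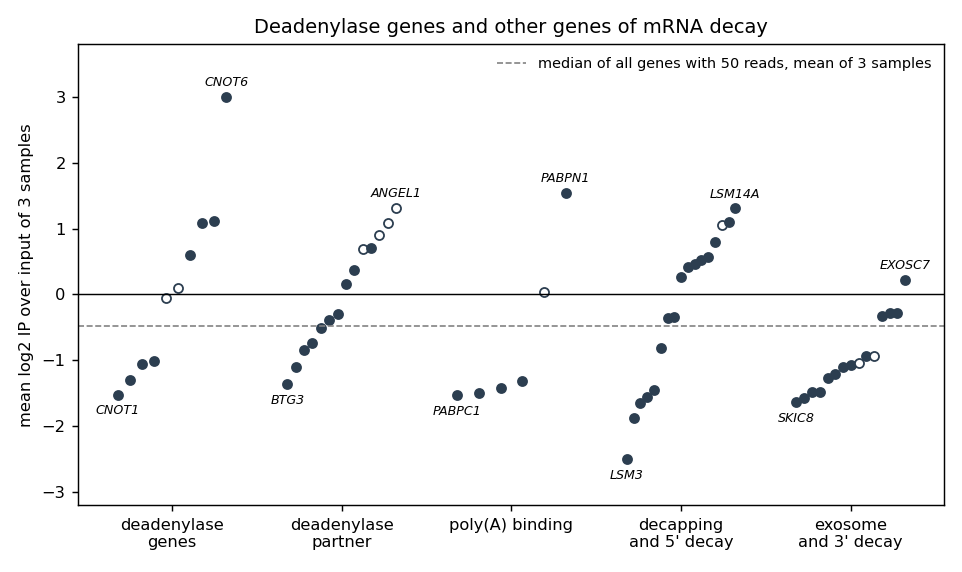
Mean log2 IP over input of the 3 samples (vertical axis) for the 10 deadenylase genes and 4 lists of other mRNA decay genes, each point a gene, with the highest and lowest of each list named. Open points had under 50 reads in a sample and the dashed line is the mean of the 3 all-gene medians. CNOT6 is the highest point, and the other lists end at or below the level of PABPN1.

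The gene with values most like those of CNOT6 was CELF1 itself, whose own mRNA had log2 IP over input of 2.63, 3.34 and 3.26 and 203 common peaks. The distance between the 2 genes over the 3 samples was 0.157 log2 units. RAP2A, a small GTPase gene, was next at 0.217, and HIF1AN, which encodes a hydroxylase that acts on HIF-1 alpha, was at 0.243. In all, 26 genes lay within 0.5 of CNOT6.

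The strand of the reads fitted the members' annotation, since 98.8% of the bins in their exons lay on the strand opposite to the listed one, the orientation of the library type. CNOT1, CNOT2, CNOT3, CNOT7, CNOT8 and PAN2 share some sequence with genes on the opposite strand, and none overlaps a gene on its own strand. Processed pseudogene copies of CNOT6L, CNOT7 and CNOT4 in the annotation had 0 listed bins.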

How the data were processed

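RNA bound by CELF1 in formaldehyde-fixed, sonicated lysates and input RNA were sequenced by the authors as stranded 40-nt reads. According to the submitters' processing notes, reads were aligned to GRCh37 with TopHat2 2.0.4 and Bowtie 0.12.7, with SAMtools 0.1.16. The authors deposited 1 list per IP of 20-bp bins called with a zero-truncated Poisson regression, each with a count of IP reads, a p-value under 0.05 and the input as a ratio-like covariate. The p-values only served as the threshold of an alternative. Input reads per bin were obtained by dividing this covariate by its smallest step (all within 0.0190 of a whole number, with 0.01 standing for none). No IgG library was analysed here.

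Bins were assigned by their centre to GENCODE 44 exons on GRCh37, with 3′UTR before coding region, using Python 3.11.15, numpy 2.4.6 and pandas 2.3.3. All bin ends lay within the chromosome lengths. Each IP was set against its same-numbered input with a pseudocount of 1 read. Nothing in the labels says that the UACC-62 samples are separate cultures, so their SD may be technical. Other genes of mRNA decay were named if they had a common peak (at most the 10 with the highest lowest value) or were the 2 lowest. Members and gene lists were chosen with earlier results of these data known. Scripts were tested on simulated data.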

Additional observations from a re-analysis of the deposited data

Results flagged for a closer look

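PAN2 was below its input in SK-Mel-103 and above it in both UACC-62 replicates, a gap of -0.49 log2 units between SK-Mel-103 and the UACC-62 mean. The difference was not tested, and the SK-Mel-103 value rested on 8 reads each of IP and input.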

How the results depend on the processing

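The 2 members with a common peak were 7 with no filter on IP reads (CNOT1, CNOT2, CNOT6, CNOT6L, CNOT7, CNOT8 and PARN, beside 60.5% of all listed genes), 1 (CNOT6, beside 4.01%) with more than 100 reads and 2 to 3 with either UACC-62 replicate left out, the third being CNOT7. The 2 members more than 2-fold above input were 1 (CNOT6) with bins with input reads only. With bins over 30 reads they were CNOT6 and PARN. Those more than 2-fold below were 0 after centring on the all-gene median and 0 with bins over 30 reads, and 3 (CNOT1, CNOT2 and CNOT7) with bins with input reads only, with 1 transcript per gene and without UACC-62 replicate 3. All-gene shares were not taken for these counts above and below input. The members' median in SK-Mel-103 (-0.24) was 0.020 after centring, 1.25 with bins over 30 reads and -0.54 with bins with input only. In UACC-62 (0.08) it was 0.67, 1.86 and -0.038, and -0.0037 with 1 transcript per gene and -0.054 to 0.21 with a replicate left out. The 3′UTR share with bins over 30 reads was 94.98% for SK-Mel-103 against 90.1% for UACC-62, and was 75.8% to 80.7% with a UACC-62 replicate left out. Members with a GRE were 5 with 1 mismatch (21.7% of all genes), 2 with none (7.81%) and 6 with 1 transcript per gene, where no all-gene share was taken. With the listed strand taken as the transcript strand, which leaves 16 bins, the counts were 1 with a common peak (CNOT6L), 0 above, 0 below and 1 that differed between the lines (CNOT6L), the medians 0.46 for SK-Mel-103 against 1.22 for UACC-62, and CNOT7 in SK-Mel-103 turned to 0.70. Of 112 other values for single members, 74 moved by less than the spread between replicates. The cause of these changes was not tested. No paired analysis was possible because no result comes from a test, and the inputs are known only in bins already called for the IP against them. Each ratio sets an IP against its same-numbered input. Levels rest on listed bins, so genes with few reads (CNOT3, CNOT4, PAN2) are the least certain.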
